A study of Mus musculus with 2 samples.

Results

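The genes described are the 9 dual-specificity MAPK phosphatase genes Dusp1, Dusp2, Dusp4, Dusp5, Dusp6, Dusp7, Dusp8, Dusp10 and Dusp16, picked out by a rule that uses their names and no measured value. They were found by symbol in the kallisto transcript tables and joined by gene identifier to the RSEM tables, and all 9 were present among the 55536 named genes. Total RNA-seq, with ribosomal RNA removed, was made on the nucleoplasm, a fraction of the nucleus, of C57BL/6J mouse macrophages grown from bone marrow. All cells had received Lipid A, the part of lipopolysaccharide that TLR4 senses, at 100 ng/ml for 12 h, had been kept without it for 12 h, and had received it again at 100 ng/ml for 40 min. This single group held 2 libraries, called biological replicates 1 and 2 in the labels, which are separate samples under 1 donor entry, so their spread may be partly technical. Sex and age were not collected. Library 1 was made from 1 µg and library 2 from 500 ng of RNA, which cannot be told apart from the replicate number. No cells without Lipid A, or exposed to it only once, were analysed here, so the values are levels, not responses, and no test between conditions was possible.

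MAP kinases are switched on by phosphorylation of a threonine and a tyrosine in their activation loop, and dual-specificity phosphatases remove both phosphates. The typical members carry a kinase-interaction motif that sets which of ERK, JNK and p38 they bind. Some are nuclear and are themselves induced by MAP kinase signalling, so that they close a negative feedback loop. In macrophages Dusp1 is known for limiting p38 and JNK activity, and with it cytokine output, after TLR4 stimulation.

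Dusp1 and Dusp2 stood far above the other 7 genes. In bulk RNA fewer cells with a transcript and less of it per cell cannot be told apart. TPM is a relative abundance scaled by transcript length and library total, so it can be set side by side between genes. Dusp1 was at 175 ± 8.42 TPM (SD, n = 2) and Dusp2 at 172 ± 64.6 TPM, while the next gene, Dusp16, was at 11.3 ± 0.962 TPM. All 9 genes had 10 or more expected counts in both libraries, the minimum used for detection. At this minimum 13757 of the 55536 named genes were detected. Among 10991 detected protein-coding genes, Dusp1 lay at percentile 97.9 and Dusp2 also at 97.9, and no other member reached the top 10%. Dusp5, Dusp6, Dusp7, Dusp8 and Dusp10 lay below the middle of these genes. The median member was at percentile 41.6, against 50 for the median of all detected protein-coding genes. It was at 49.0 by CPM, counts scaled to the library total but not to length, and at 55.6, above the middle, among protein-coding genes with any count. The range within the family was 270-fold between Dusp1 and Dusp10, the lowest at 0.650 ± 0.283 TPM.

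**Figure D1:**
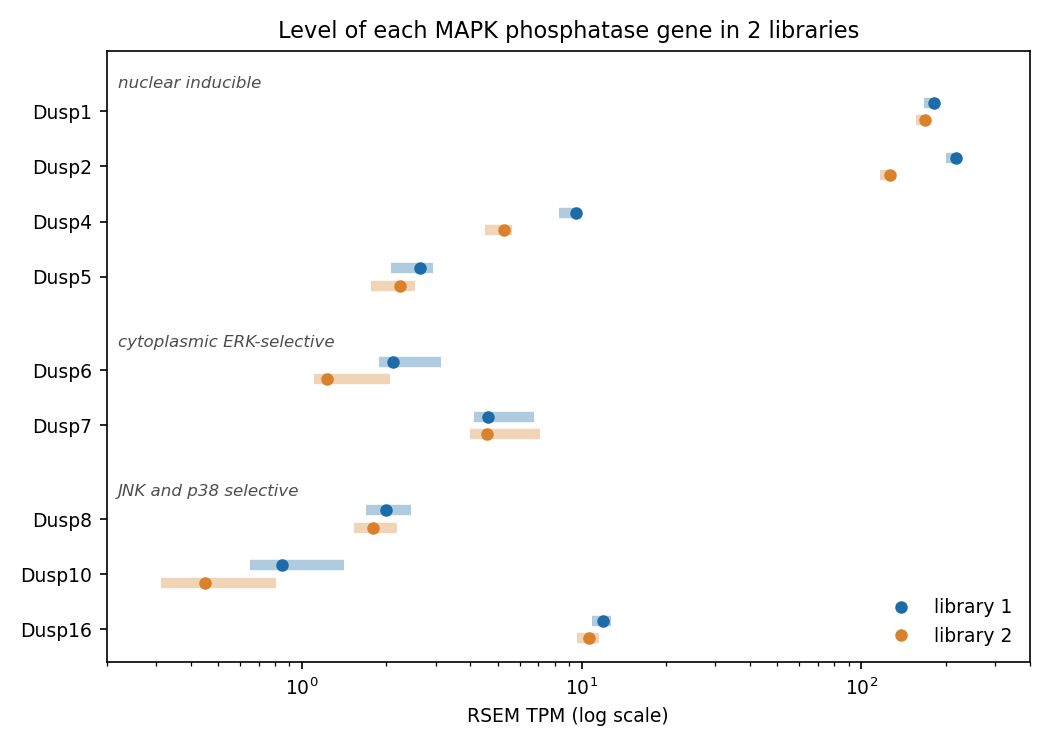
RSEM TPM (log scale) of the 9 genes, grouped by location and substrate preference. Points are the deposited TPM of each library and pale bars the credibility interval deposited with it, which belongs to a posterior estimate, so a point can lie at its edge or outside it. Dusp1 and Dusp2 lie above 100 TPM in both libraries and Dusp10 lies below 1.

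The nuclear inducible enzymes spanned the widest range of the classes, from Dusp5 to Dusp1. Dusp1 (MKP-1, a nuclear phosphatase of p38, JNK and ERK, ENSMUSG00000024190.7, chromosome 17, 26505590 to 26562128 in mm10, minus strand, of which the stretch beyond 26508519 belongs to upstream models without RSEM counts) had 181 and 169 TPM in libraries 1 and 2, from 6142 and 5430 expected counts. The deposited credibility intervals, whose level is not stated, were 167 to 177 TPM and 157 to 167 TPM. They belong to the posterior mean estimates of 172 and 162 TPM, and both deposited TPM values lie just above them. Dusp2 (PAC-1, a nuclear phosphatase found mostly in blood cells, ENSMUSG00000027368.6, chromosome 2, 127336159 to 127338376, plus strand) had 218 and 127 TPM from 5495 and 3006 counts, again just above its intervals of 201 to 213 and 116 to 126 TPM. Dusp2 was thus above Dusp1 in library 1 and below it in library 2, and their means differed by 2.80 TPM, less than the spread between libraries. Dusp4 (MKP-2, a nuclear relative of Dusp1, chromosome 8, 34807297 to 34819894, plus strand) had 9.53 and 5.28 TPM, from 518 and 301 counts. Dusp5 (a nuclear phosphatase that binds ERK alone, chromosome 19, 53529109 to 53542431, plus strand) had 2.63 and 2.23 TPM, from 128 and 114 counts. Dusp4 and Dusp5 therefore lay far below Dusp1 and Dusp2 in both libraries, although all 4 belong to 1 class.

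The 2 cytoplasmic ERK-selective genes were low. Dusp6 (MKP-3, the cytoplasmic ERK phosphatase of growth factor feedback, chromosome 10, 99263231 to 99267489, plus strand) had 2.11 and 1.23 TPM, from 113 and 71 counts. Dusp7 (MKP-X, its close relative, chromosome 9, 106368632 to 106375724, plus strand) had 4.63 and 4.6 TPM, from 283 and 269 counts. Dusp7 was higher than Dusp6 in both libraries, and its range did not overlap that of Dusp6.

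Of the genes for phosphatases that prefer JNK and p38, Dusp16 was the highest. Dusp16 (MKP-7, a JNK and p38 phosphatase, chromosome 6, 134715468 to 134792625, minus strand) had 11.9 and 10.6 TPM, from 971 and 855 counts. Dusp8 (a JNK and p38 phosphatase, chromosome 7, 142079490 to 142095843, minus strand) had 1.99 and 1.80 TPM, from 196 and 187 counts. Dusp10 (MKP-5, a JNK and p38 phosphatase, chromosome 1, 184013302 to 184075636, plus strand) had 0.850 and 0.450 TPM, from 47 and 26 counts. Dusp16 was thus far above both relatives in each library, and Dusp10 was the lowest of all 9 genes in each.

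From high to low, the mean levels ran Dusp1, Dusp2, Dusp16, Dusp4, Dusp7, Dusp5, Dusp8, Dusp6 and Dusp10. Dusp1 and Dusp2 changed places between the libraries, and so did Dusp8 and Dusp6, whose means differed by 0.225 TPM against an SD of 0.622 TPM for Dusp6. Dusp4 exceeded Dusp7 in both libraries, but the difference of 2.79 TPM was below the SD of Dusp4, 3.01 TPM. With kallisto that pair was turned round, with Dusp4 at 2.50 and 3.33 TPM and Dusp7 at 2.90 and 4.77 TPM. The gap of 0.535 TPM between Dusp5 and Dusp8 was larger than their spread between libraries, but their credibility intervals overlapped. The remaining steps, from Dusp2 to Dusp16, Dusp16 to Dusp4, Dusp7 to Dusp5 and Dusp6 to Dusp10, held in both libraries, with intervals apart, and also with kallisto.

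Summed over the family, library 1 held 433 TPM and library 2 held 322 TPM. The nuclear inducible class took 94.6% ± 0.580 of it (SD, n = 2), the JNK and p38 selective class 3.70% ± 0.402 and the cytoplasmic ERK-selective class 1.68% ± 0.178. Dusp1 and Dusp2 alone made up 92.0% ± 0.242. The 3 genes for enzymes that act on ERK alone or with strong preference, Dusp5, Dusp6 and Dusp7, summed to 9.37 and 8.06 TPM in the libraries, a sum added after the values were seen. That was below the level of Dusp16 by itself in both libraries. The order of the classes was the same with kallisto, where they took 90.9%, 6.05% and 3.03%.

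The transcripts of Dusp1 were divided between spliced and intron-containing forms. Dusp1-202, the transcript with the full coding sequence of 367 codons, has 4 exons and 3 short introns, all within the coding sequence. Dusp1-203 keeps intron 2 (369 bases, chr17:26507205-26507573), and Dusp1-204, a shorter model, keeps intron 3 (334 bases, chr17:26506651-26506984). Dusp2-202 likewise keeps intron 2 of Dusp2-201 (350 bases, chr2:127336899-127337248). The retained-intron shares rest on these introns, so their edges are shown, 15 bases to each side, from the GENCODE M21 transcripts on mm10, in the direction of the gene, with intron bases in capitals.
Dusp1 intron 2, 5′ edge: cctctctacgatcagGTTAGTAGGAGTCCG
Dusp1 intron 2, 3′ edge: TTTTTTTGACTTCAGgggggcccagtggag
Dusp1 intron 3, 5′ edge: ctattgacttcatagGTAAATGGAATAACT
Dusp1 intron 3, 3′ edge: AACTTTATTTTCCAGactccatcaaggatg
Dusp2 intron 2, 5′ edge: ccgatctatgaccagGTGAGTTGATATTCG
Dusp2 intron 2, 3′ edge: CCCTTCCTCCTCCAGggtggtcctgtggaa
Each intron opens with GT and closes with AG, the bases the major spliceosome recognises.

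Dusp1-203 had 61.1 and 49.5 TPM in libraries 1 and 2, and Dusp1-204 had 48.4 and 46.1 TPM. Retained-intron transcripts together made up 60.4% and 56.5% of Dusp1 TPM, a mean of 58.4% ± 2.78 (SD, n = 2), or 62.2% and 62.3% with kallisto. The share was thus near the same in both libraries and with both programs. Dusp2-201, the spliced transcript, had 158 and 75.5 TPM, while the intron-containing Dusp2-202 had 60.1 and 51.3 TPM. The gap between libraries in Dusp2 therefore lay mostly in the spliced transcript. Its retained-intron share was 27.6% and 40.5%, or 31.3% and 40.8% with kallisto, so it was higher in library 2 with both programs. As a share of expected counts, with no length scaling, the Dusp2 value was 12.9% and 20.7%, a mean of 16.8%, and its percentile among genes was not computed on that scale. Dusp16, the third member with such a transcript, had 0% and 2.44%. That share leaves out Dusp16-204, annotated as protein coding, whose last exon extends into an intron of the longer Dusp16 models. Over 5058 detected protein-coding genes that have such a transcript and 100 or more counts in each library, the median share was 24.0% and the quartiles were 12.2% and 38.7%. Dusp1 lay at percentile 92.4 of these genes, Dusp2 at 67.7 and Dusp16 at 2.98. Nuclear RNA can hold transcripts that are not yet spliced, and these shares do not tell them from introns that stay.

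**Figure D2:**
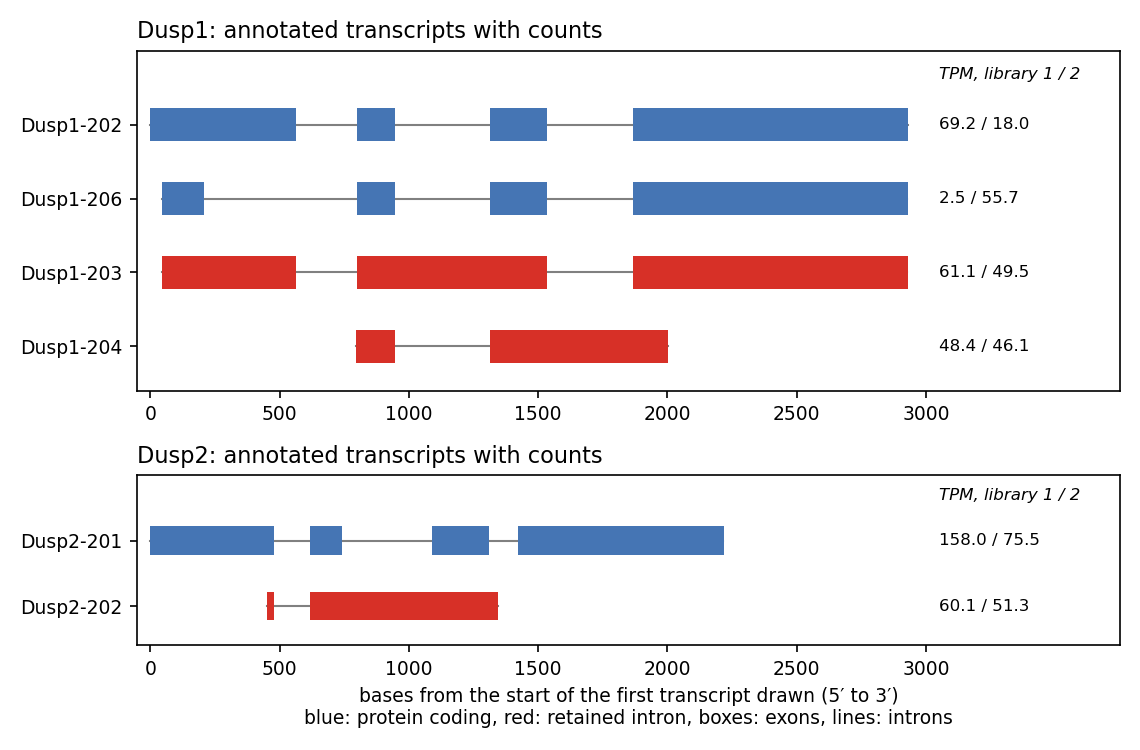
Exons (boxes) and introns (lines) of the 4 Dusp1 and 2 Dusp2 transcripts with RSEM counts in either library, in bases from the start of the first transcript drawn, with TPM of library 1 and library 2 at the right. The red retained-intron models had similar TPM in both libraries, 61.1 and 49.5 for Dusp1-203, while the blue Dusp1-202 and Dusp1-206 changed places.

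The protein-coding transcripts of Dusp1 were not estimated alike in the libraries. Dusp1-202 had 69.25 and 18.0 TPM in libraries 1 and 2, and Dusp1-206 had 2.52 and 55.7 TPM. Their credibility intervals did not overlap between the libraries, with 60.4 to 69.9 TPM against 13.8 to 22.2 TPM for Dusp1-202 and 0.59 to 5.19 TPM against 47.0 to 57.8 TPM for Dusp1-206. Apart from 1 base at the 3′ end, both share exons 2 to 4 and differ only in exon 1. Dusp1-206 starts 47 bases further downstream and leaves out the last 355 bases of that exon (chr17:26507957-26508311), and its annotated coding sequence has 174 codons. The point inside exon 1 where it departs is shown with 15 bases on each side and the bases it leaves out in capitals.
Dusp1 exon 1, departure of Dusp1-206: gccatggtgatggagGTGGGCATCCTGGAC
With kallisto Dusp1-206 likewise held 0.46% of Dusp1 TPM in library 1 and 18.8% in library 2, and Dusp1-202 held 37.3% and 18.6%. The protein-coding share of Dusp1 as a whole was 39.6% and 43.5%, so the 2 estimates differed in opposite directions within a similar sum.

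Of the 29 annotated transcripts of the family, 13 had a mean expected count of 100 or more, and 2 of these, Dusp1-202 and Dusp1-206, were over 2-fold apart between the libraries after centring. Over all 13503 such transcripts of detected protein-coding genes, 12.1% were over 2-fold apart. This count was added after the values were seen. The 7 members with several transcripts had the same highest transcript in both libraries in 6 cases, with Dusp1 the exception, against 76.7% of 10093 genes. With kallisto Dusp6 and Dusp7 were exceptions too, which left 4 of 7, against 74% of 10090 genes. On the mean of both libraries RSEM and kallisto named the same highest transcript in 6 of 7, again except Dusp1, against 69.3% of 10093 genes. RSEM placed no count on 9 of the 29 transcripts in either library, and kallisto gave 8 of these 9 a value above 0. The matching shares over all transcripts were not computed, so whether these counts are particular to the family is not known.

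Dusp4 and Dusp5 have 1 annotated transcript each, Dusp4-201 and Dusp5-201. Dusp8 and Dusp10 were assigned wholly to Dusp8-201 and Dusp10-201 by RSEM. Kallisto gave Dusp8-202, which is also protein-coding, 21.9% and 8.03% of Dusp8 TPM. Dusp6-201 took 78.3% and 94.2% of Dusp6 TPM with RSEM, and Dusp6-204, a 2-exon coding model, took 21.7% and 5.83%, on 21.2 and 3.47 counts. With kallisto Dusp6-204 held 10.2% and 41.7%, and the non-coding Dusp6-202 and Dusp6-203, without RSEM counts, held 25.6% and 0%, and 11.6% and 21.9%. Dusp7-201 took 92.8% and 81.5% of Dusp7 TPM with RSEM, and the non-coding Dusp7-204 took 7.18% and 18.5%, on 5.82 and 15.4 counts. Kallisto placed 56.2% and 41.6% of Dusp7 TPM on Dusp7-202, a non-coding model of 270 bases that had no RSEM count.

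Dusp16 was spread over several coding models. Dusp16-204, a 4-exon model with 206 codons, was the highest at 5.80 and 5.18 TPM, or 48.6% and 48.9% of the gene. Its last exon, of 2480 bases, extends into an intron of Dusp16-201 and Dusp16-202. Reads of unspliced RNA from that stretch cannot be told from reads of Dusp16-204. Dusp16-201, with 660 codons, had 4.21 and 2.87 TPM, and Dusp16-202, with 338 codons, had 1.73 and 2.03 TPM. The longest coding model thus held 35.2% and 27.1% of Dusp16 TPM. With kallisto Dusp16-204 was again the highest, at 27.4% and 33.3%, while the non-coding Dusp16-205 held 27.2% and 16.4% and Dusp16-203, annotated for nonsense-mediated decay, 21.2% and 16.2%.

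**Figure D3:**
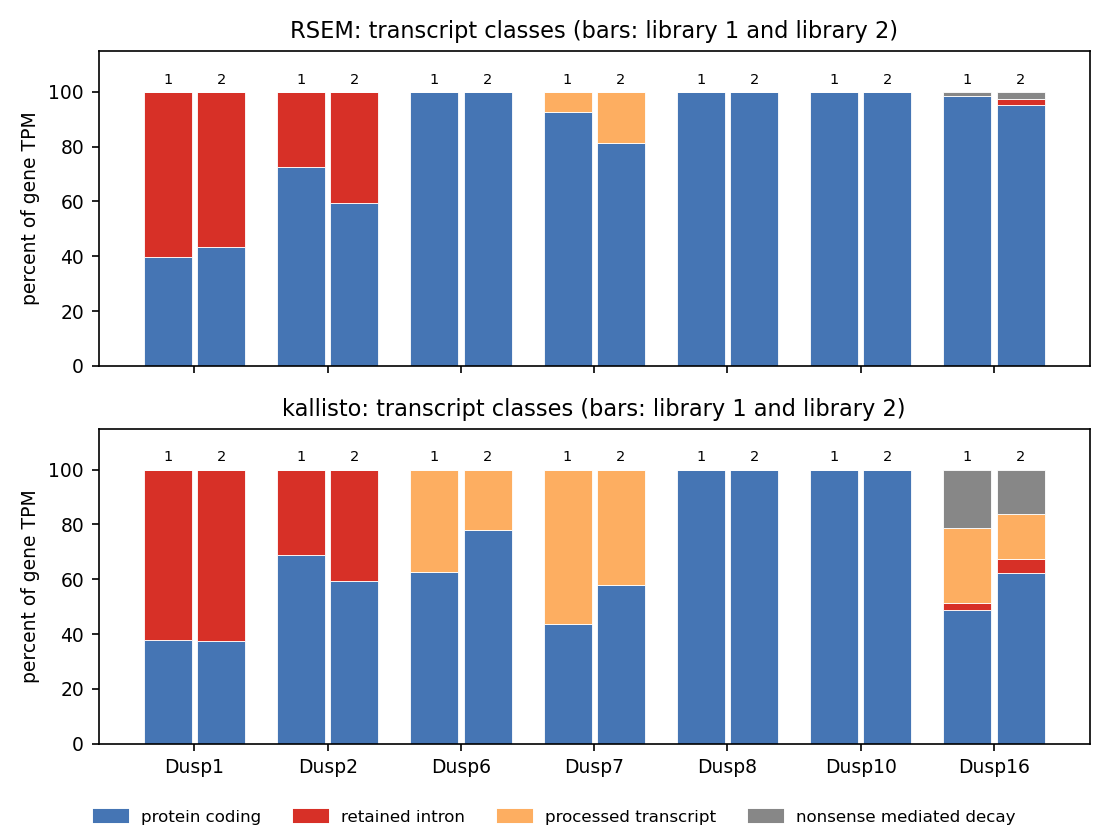
Percent of gene TPM by annotated transcript class for the 7 members with several transcripts, in library 1 and library 2, with RSEM above and kallisto below. The Dusp1 and Dusp2 shares are alike with both programs, while Dusp6, Dusp7 and Dusp16 hold non-coding shares with kallisto that are near 0 or small with RSEM.

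The promoters of the 2 highest genes and of 2 low ones, Dusp5 and Dusp8, are shown to set letters beside levels. They are the 250 bases before the RefSeq start on GRCm38.p6, the mm10 build, in the direction of the gene. Capitals mark the cyclic AMP response element (CRE) TGACGTCA, its core TGACG, the E-box CACGTG and the CArG box that serum response factor binds.
Dusp1, chr17:26508473-26508722, minus strand: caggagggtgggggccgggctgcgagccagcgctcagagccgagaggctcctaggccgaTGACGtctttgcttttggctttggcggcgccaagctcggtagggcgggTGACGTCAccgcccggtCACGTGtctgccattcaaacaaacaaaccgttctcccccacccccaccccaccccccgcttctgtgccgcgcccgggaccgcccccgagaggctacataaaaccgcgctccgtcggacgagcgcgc
Dusp2, chr2:127335909-127336158, plus strand: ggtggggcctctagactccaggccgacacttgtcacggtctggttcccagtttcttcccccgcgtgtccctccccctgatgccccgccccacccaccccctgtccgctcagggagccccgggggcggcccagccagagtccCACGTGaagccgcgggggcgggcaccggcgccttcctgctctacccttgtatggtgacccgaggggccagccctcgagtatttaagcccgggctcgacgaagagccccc
Dusp5, chr19:53528895-53529144, plus strand: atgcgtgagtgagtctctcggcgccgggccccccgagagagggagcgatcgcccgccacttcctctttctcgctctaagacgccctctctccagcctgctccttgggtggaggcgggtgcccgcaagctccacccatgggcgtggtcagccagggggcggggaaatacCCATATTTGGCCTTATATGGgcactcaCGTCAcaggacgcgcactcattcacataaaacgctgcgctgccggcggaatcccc
Dusp8, chr7:142095285-142095534, minus strand: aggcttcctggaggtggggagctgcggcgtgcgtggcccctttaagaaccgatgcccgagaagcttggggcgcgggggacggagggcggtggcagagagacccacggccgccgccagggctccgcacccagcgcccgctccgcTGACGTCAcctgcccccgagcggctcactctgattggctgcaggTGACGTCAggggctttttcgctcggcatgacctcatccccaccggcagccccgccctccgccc
Both strands were searched, and each CRE also holds the core on both strands.

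The RefSeq table held 8 of the 9 genes. The Dusp1 window holds 1 CRE at -143 to -136 from the start, a further core at -191 to -187 and an E-box at -126 to -121. Dusp8 holds 2 CREs, at -107 to -100 and -63 to -56, and its mean level was 92.5-fold below that of Dusp1. Dusp2 holds no CRE or core in this window and an E-box at -109 to -104. Dusp5 holds 2 adjoining CArG boxes, at -82 to -73 and -72 to -63, and the core at -55 to -51. Dusp16 holds 1 core, and Dusp6, Dusp7 and Dusp10 hold none of these 4 motifs. None of the 8 windows holds the AP-1 site TGANTCA, the TATA box TATAAA or a κB site searched by name. Of 32851 windows of the same length, 1.55% hold a CRE, 17.8% the core, 6.02% the E-box, 1.47% a CArG box, 6.75% the AP-1 site, 12.4% the TATA box and 7.25% a κB site. These matches describe letters only, and with 1 condition the data do not bear on which of them was in use.

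No member was over 2-fold apart between the libraries. Before centring all 9 genes were lower in library 2 with RSEM, as was the median detected protein-coding gene, by -0.36 on the log2 scale. After this shift was removed, 4 genes were lower and 5 higher in library 2, with log2 ratios from -0.56 for Dusp10 to 0.35 for Dusp7 and a median of 0.12. Dusp2 was at -0.42, Dusp4 at -0.49, Dusp6 at -0.42 and Dusp1 at 0.26. The 0 members over 2-fold apart stand against 3.08% of 7993 detected protein-coding genes whose mean count reached 100, as that of 7 members did. With kallisto the direction before centring was reversed. All 9 genes were then higher in library 2, as was the median detected protein-coding gene, by 0.87. After centring 7 of the 9 kallisto ratios were below 0, and Dusp7, Dusp8 and Dusp16 had the other sign, at -0.16, -0.07 and -0.26. With 1 library on each side these ratios have no replicate check and no p-value.

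**Figure D4:**
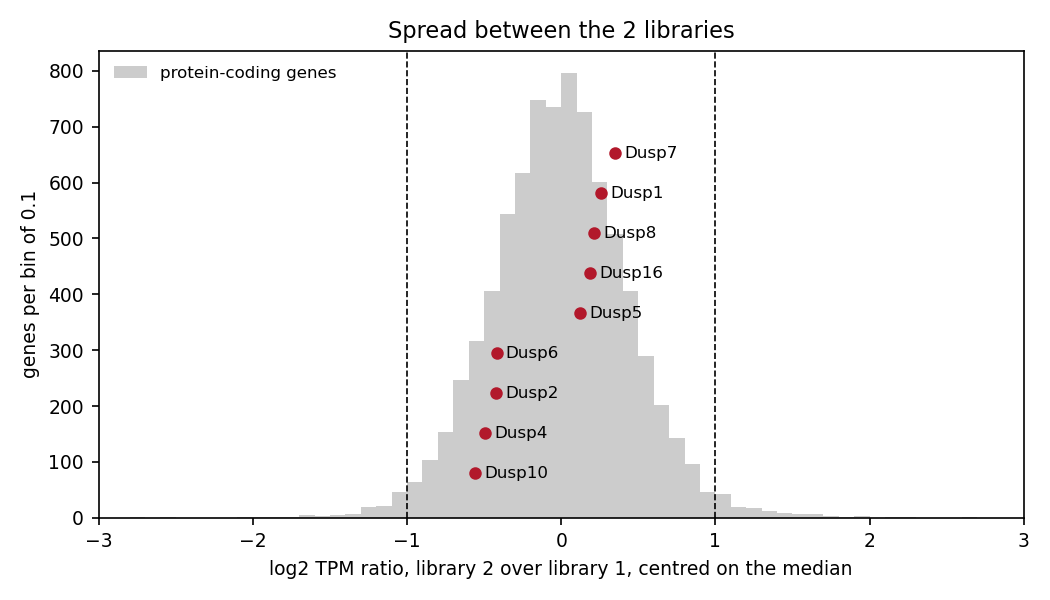
Centred log2 TPM ratio of library 2 over library 1 for detected protein-coding genes whose mean count reached 100 (grey histogram) and for the 9 members (points, set at arbitrary heights). Dashed lines mark a 2-fold difference, and all 9 members lie between them.

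On the mean of both libraries, kallisto TPM of the median detected protein-coding gene was 2.02-fold below RSEM TPM. The offset was not the same in each library. From library 1 to library 2 the median log2 shift was -0.36 with RSEM and 0.87 with kallisto. Levels from the 2 programs were therefore compared after centring. No member was over 2-fold apart between programs on the mean of both libraries, against 4.22% of the 7993 genes. Dusp7 and Dusp16 were the 2 members relatively highest with kallisto, by 0.74 and 0.54 on the log2 scale, and Dusp2 relatively lowest, at -0.34. Kallisto placed shares of Dusp6, Dusp7, Dusp8 and Dusp16 on short models with few or no RSEM counts. Dusp6 and Dusp8 were at 0.11 and 0.03 between programs. The other members ran from -0.34 for Dusp2 to -0.18 for Dusp5. The part of the short models in these differences was not tested. In library 1 alone Dusp7 was just over 2-fold apart, at 1.003, as were 4.8% of the 7993 genes in either direction.

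The genes of the kinases these enzymes act on ranged from undetected to well above the median gene. Of the 8 MAP kinase genes read 5 were detected, Mapk10, Mapk12 and Mapk13 being below the minimum, and none was in the highest 10% of protein-coding genes detected. Their median percentile was 32.9, and Mapk11, a p38 gene, was the lowest of those detected at percentile 7.34. The p38α gene Mapk14 was at 35.6 and 21.4 TPM and the JNK2 gene Mapk9 at 20.9 ± 6.83 TPM (SD, n = 2), and the lowest was Mapk10, the neuronal JNK gene, at 0.0600 ± 0.0141 TPM. Dusp1 and Dusp2 thus stood above each of these 8 kinase genes in both libraries, and the other 7 members stood below Mapk14 and Mapk9. Of 12 other phosphatase genes that can act on MAP kinases or are related to those that do, 8 were detected. Ppp2ca, a catalytic subunit of PP2A, was at 19.0 ± 6.09 TPM, Dusp3, a small dual-specificity phosphatase, had 18.9 TPM in each library, and Ptprr had no RSEM count but 0.928 TPM with kallisto in library 1. Dusp9, a cytoplasmic ERK-selective relative singled out beyond the naming rule, had 3 counts in library 1 and 0 in library 2. All 9 genes of MAPK-activated kinases and of factors that act on Dusp1 transcription or mRNA stability were detected, and 3 were in the top 10%. Zfp36, which promotes decay of AU-rich mRNAs, was at 412 ± 4.95 TPM, Mapkapk2, the p38-activated kinase MK2, at 144.94 and 78.88 TPM, and Rps6ka5, the kinase MSK1, was lowest at 2.00 ± 0.926 TPM.

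**Figure D5:**
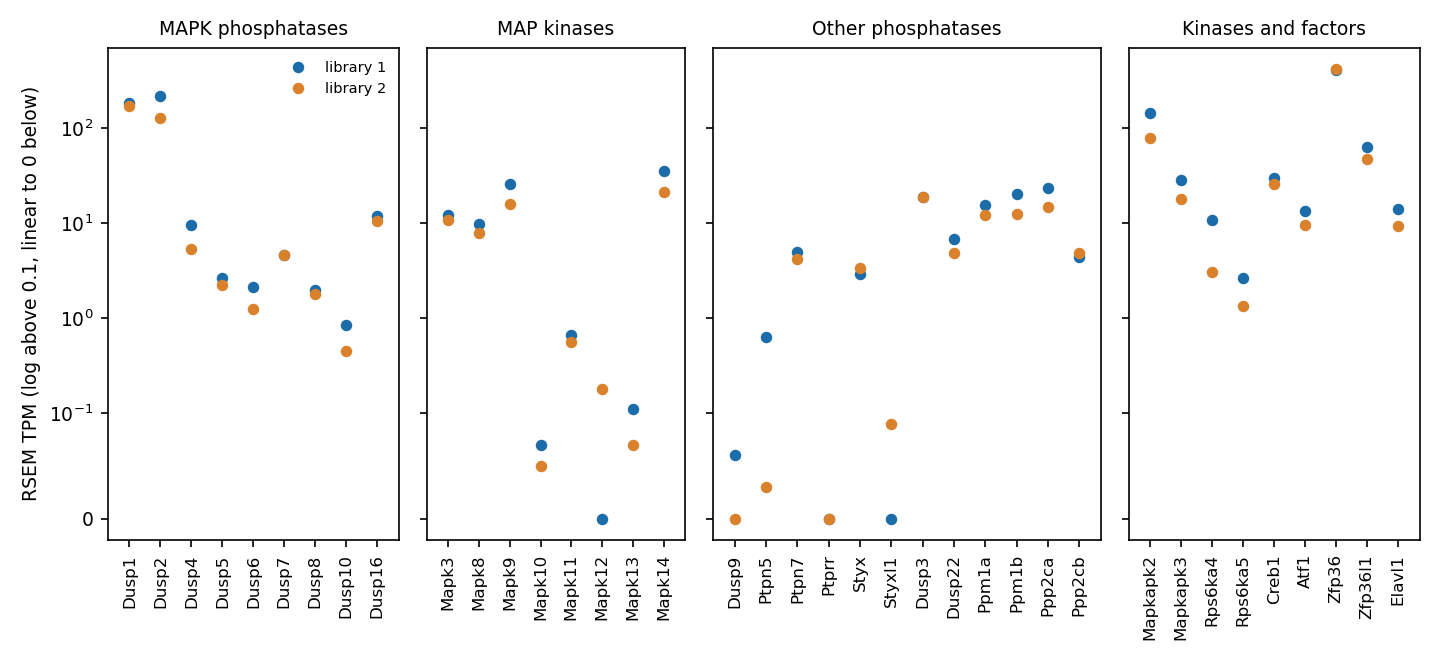
RSEM TPM in each library of the 9 members, 8 MAP kinase genes, 12 other phosphatase genes and 9 genes of MAPK-activated kinases and related factors; the axis is logarithmic above 0.1 and linear to 0 below it. Dusp1 and Dusp2 lie above every kinase gene drawn in the panel of MAP kinases.

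Library 1 held 19797829 and library 2 held 17213606 expected counts on named genes, so that 3 counts, the most a count of 0 allows, equal 0.152 and 0.174 CPM. All 6 macrophage markers were in the highest 10% of protein-coding genes detected, summing to 2748 and 2222 TPM. Defining markers of other cells were near 0, with summed TPM of at most 1.67 in either library for the B cell, neutrophil, dendritic cell and fibroblast lists, and Cd3e and Cd3g had no RSEM count. Cd4, on the T cell list, stood at 21.4 ± 2.24 TPM (SD, n = 2). The libraries also differed in the mitochondrial mRNAs mt-Co1, mt-Nd1 and mt-Cytb, at 11940 TPM summed in library 1 and 28378 in library 2. The nuclear RNA Neat1 differed too, at 1616 and 575 TPM, a centred log2 ratio of -1.13. Malat1, the other nuclear RNA read, was at 26516 and 22941 TPM, a centred log2 ratio of 0.15. The part of these RNAs in the differences between libraries was not tested.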

How the data were processed

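Expected counts, TPM and FPKM per gene and transcript, and the percent of gene TPM in each transcript, were deposited by the authors in the column layout of RSEM. Estimated counts and TPM per transcript were deposited in the layout of kallisto. For each TPM the authors also deposited 2 interval bounds, treated here as a score because their level is not stated. Per the file notes deposited by the authors, the assembly is mm10 and the annotation GENCODE M21. The sources used here name no aligner, program version or strand setting. FPKM was not used.

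Kallisto gene values are sums over transcripts. A total of 26345 features without a gene name (0.653% and 0.222% of counts) were left out of library sizes and percentiles but stay in the deposited TPM. Log2 ratios without a pseudocount were centred so that the median over 10991 detected protein-coding genes is 0, a step tested on simulated data. Levels are means and SD of 2 libraries, SD including a shift of the TPM scale between them, and no test was made. Alternatives were kallisto, posterior mean TPM, counts scaled to library size, CPM (with TMM factors from edgeR 4.0.16 in R 4.3.3), other minimums and each library alone. Symbols and sequences came from GENCODE M21 and RefSeq, all 9 members matched, and other tables were made in Python 3.11.15. The text names all 9 members, their 2 highest transcripts and any with 10% or more of gene TPM in either library with RSEM or kallisto, and the 2 highest and the lowest genes of each pathway list. Protein sequences were planned and not analysed here, and 1 gene of the MAP kinase list is not reported here. The members and lists were chosen with earlier results of these data known.

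Where genes overlap a member on the other strand, reads cannot be divided with certainty. Ergic1 overlaps the long upstream model of Dusp1 with 428 and 399 counts, and the genes overlapping Dusp5, Dusp8, Dusp10 and Dusp16 had at most 45 counts. Floors cover counting error only. The deposited intervals were given for each library by itself, so neither covers variation between libraries.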

Additional observations from a re-analysis of the deposited data

How the results depend on the processing

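No paired analysis was possible because both libraries belong to 1 group. All 9 members stayed detected with a minimum of 1, with kallisto and in each library alone, and 8 with a minimum of 50, Dusp10 being lost. The shares of all genes at these settings are not given here. The 2 members in the top 10% were counted at 2 under every alternative run. The median percentile of the members was 49.0 by CPM, which are not scaled by length, 55.6 without a filter on low genes, and 41.4 to 45.9 in the libraries alone. The nuclear inducible class took 90.9% with kallisto and 87.3% by CPM. The JNK and p38 selective class took 6.05% and 9.57%, and the cytoplasmic ERK-selective class 3.03% and 3.08%, or 2.07% with posterior mean TPM. Members over 2-fold apart between programs numbered 0 to 1 in the libraries alone, the 1 being Dusp7 in library 1. Of the 7993 genes, 4.8% were so called in library 1 alone and 4.63% in library 2 alone. Members over 2-fold apart between libraries stayed at 0 under every alternative, with 1.53% to 7.72% of genes so called. Levels of all 9 members moved by more than 1 SD with kallisto and with TPM rescaled over protein-coding genes, which change the scale. With posterior mean TPM 1 did, Dusp7, from 4.615 to 5.365 TPM, against an SD of only 0.0212 TPM. Dusp6 went from 1.67 to 2.015 TPM, which was within its SD of 0.622 TPM. The highest transcript was the same in both libraries for 6 of 7 members by expected counts, against 84.3% of genes. With kallisto it was the same for 4 of 7, against 74%.

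The alternatives that follow were chosen after seeing the data. The retained-intron share of Dusp1 was 62.3% with kallisto and 55.3% by expected counts, and 56.5% to 60.4% in the libraries alone. That of Dusp2 was 16.8% by expected counts, since Dusp2-202 is the shorter model, and 27.6% to 40.5% in the libraries alone. Member transcripts over 2-fold apart numbered 1 of 13 with kallisto, where 11.9% of all transcripts were. At a minimum of 10 they numbered 4 of 17, where 22.3% of all transcripts were. Where no reason is given above, the cause was not tested. Depth limits Dusp10, at 47 and 26 counts, and the minor transcripts of Dusp6 and Dusp7.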

Other observations

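Genes of the Sprouty and Spred families, which restrain signalling to ERK upstream of the kinase, were also read as a list. Of 6 measured, 5 were detected. Spred1 had 53.86 and 36.88 TPM in libraries 1 and 2 and was among the highest 10% of protein-coding genes detected. The remaining members were far lower in both libraries. Spred2 followed at 2.73 and 3.02 TPM, and Spry4, the lowest, had no RSEM count in either library.

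Gm36328, a gene on the strand opposite Dusp16, had 9.19 and 1.88 TPM with RSEM, on 45 and 9 counts, but 7.69 and 8.34 TPM with kallisto. Of the pathway genes read, Rps6ka4, the kinase MSK2, had 10.73 and 3.05 TPM, a centred log2 ratio of -1.46, and Ptpn5 had 20 counts in library 1 and 2 in library 2; both were named after their values were seen.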
